A study of Mus musculus with 40 samples.

Results

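The comparison described here asks what NUP98-HOXD13 (NHD13) adds to hematopoietic progenitors that already carry Flt3-ITD. It uses 8 of the 40 samples in the series, all from mice at P14 (14 days old). The 4 libraries labelled FLT3-ITD/NUP98-HOXD13, called Flt3-ITD with NHD13 below, were set against the 4 labelled FLT3-ITD, called Flt3-ITD. The members were taken from the column names of the P14 count table, not from measured values. Both groups carry Flt3-ITD, so the comparison concerns NHD13 on that background and not against wild type. The labels give the cells as hematopoietic progenitor or multipotent progenitor (MPP) cells. They do not give the zygosity, the promoter that drives the fusion, the sorting gate, or whether the 4 libraries of a group are 4 animals. The p-values therefore measure the spread between libraries within groups, which may be technical in part. At P14 that spread was estimated over all 24 libraries in 6 groups, not only over these 8. For context the text also uses the P14 groups NHD13 alone and wild type, and both genotypes at P0 (newborn), again with 4 libraries each. The P14 fit also held the groups labelled ITD/Runx and Runx het (Runx1 heterozygous), and the P0 fit held wild type. These added groups entered the low-count filter and the estimate of spread but none of the contrasts.

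FLT3 is a receptor tyrosine kinase of early blood progenitors, and an internal tandem duplication (ITD) near its kinase domain makes it signal without ligand. NHD13 joins the N-terminal repeats of the nuclear pore protein NUP98 to the homeodomain of HOXD13, which gives a chromatin-bound factor known for keeping HOX cluster genes switched on. HOX proteins bind DNA together with PBX and MEIS partners, are high in blood stem cells and normally decline as cells mature. NHD13 mice are known as a model of myelodysplastic syndrome, and both lesions occur in human acute myeloid leukemia.

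Libraries of Flt3-ITD with NHD13 held 16.6 to 26.3 M counts, and those of Flt3-ITD held 16.9 to 27.3 M. The first principal component of the 8 libraries held 56.7% of the variance and separated the groups. The second held 13.5% and set library 1 of Flt3-ITD with NHD13 apart from the others of its group. By Xist and Y-linked counts, library 2 of Flt3-ITD with NHD13 was female, and the other 3 of that group and all 4 Flt3-ITD libraries were male. Library 2 of Flt3-ITD carried the most RNA of other mature cells. Its summed mature neutrophil markers were at 73.9 CPM (counts scaled to library size), against 16.4 to 20.2 CPM in the other 3 Flt3-ITD libraries and 18.3 to 28.6 CPM in Flt3-ITD with NHD13. Its dendritic cell markers summed to 165 CPM, against 39.8 to 50.3 CPM in Flt3-ITD with NHD13 and 54.8 to 59.7 CPM in the rest of its own group. All CPM below use effective library sizes, log2 fold changes are given ± SE (n = 4 each), and the adjusted p comes from edgeR's quasi-likelihood test with Benjamini-Hochberg adjustment over all tested genes.

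The targeted genes were read first. Hoxd13 (chromosome 2, 74668310 to 74671599 in GENCODE M21, GRCm38), whose homeodomain is in the fusion, had 57, 59, 45 and 55 counts in Flt3-ITD with NHD13 and 0 counts in each of the 4 Flt3-ITD libraries. That is at least 66.6-fold higher against a floor of 3 counts over the 4 libraries. Nup98 (chromosome 7, 102119398 to 102210176), the other partner, was at 45.8, 39.5, 49.3 and 45.0 CPM in Flt3-ITD with NHD13 and at 38.8, 34.0, 28.8 and 35.8 CPM in Flt3-ITD. It rose by 0.38 ± 0.11 (adjusted p = 0.0212), a call that was lost when either of 2 libraries was left out, library 3 of Flt3-ITD with NHD13 or library 3 of Flt3-ITD. Flt3 itself was at 616, 634, 693 and 658 CPM in Flt3-ITD with NHD13 and at 702, 777, 701 and 752 CPM in Flt3-ITD, a difference of -0.17 ± 0.09 that did not pass (adjusted p = 0.211). Whole-gene counts do not read the fusion junction or the duplication.

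Of 14394 tested genes, 914 (6.35%) rose and 1034 (7.18%) fell in Flt3-ITD with NHD13, which is 13.5% in either direction. More than 2-fold changes were made by 452 of the higher and 462 of the lower genes, and more than 4-fold changes by 211 and 176. The 4 libraries of the 2 groups did not overlap in CPM for 2351 genes (16.3% of those tested), 1641 of them among the genes that passed. The median over all tested genes was 0.01 on the log2 scale. The shares 6.35% and 7.18% are the background for the gene groups that follow.

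Of the 39 HOX genes in the 4 clusters, 18 passed the low-count filter and 15 of those rose, 4 of 6 in the Hoxa cluster, 4 of 5 in Hoxb, 5 of 5 in Hoxc and 2 of 2 in Hoxd. The median over the 18 was 6.68. However, a gene absent from Flt3-ITD passes the filter only through other groups of the fit. The compared group with NHD13 is among these, so the filter itself favours genes that rise. The count therefore holds for the genes tested and not for the whole family. The median was 4.43 without library 1 of Flt3-ITD, 1.045 over the 32 HOX genes left with no low-count filter and 0.94 in DESeq2. A further 13 HOX genes had 0 counts in all 8 libraries. Most of the risers came from near silence. Summed over libraries, the Hoxc cluster totalled 7572 counts with NHD13, against 11 counts in Flt3-ITD, and the Hoxd cluster 375 against 1. Hoxd13 held 216 of those 375 counts. Part of Hoxd13 is in the fusion, so whole-gene counts cannot tell its own reads from those of the fusion. The same limit applies to its place among the 15 genes that rose.

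**Figure D1:**
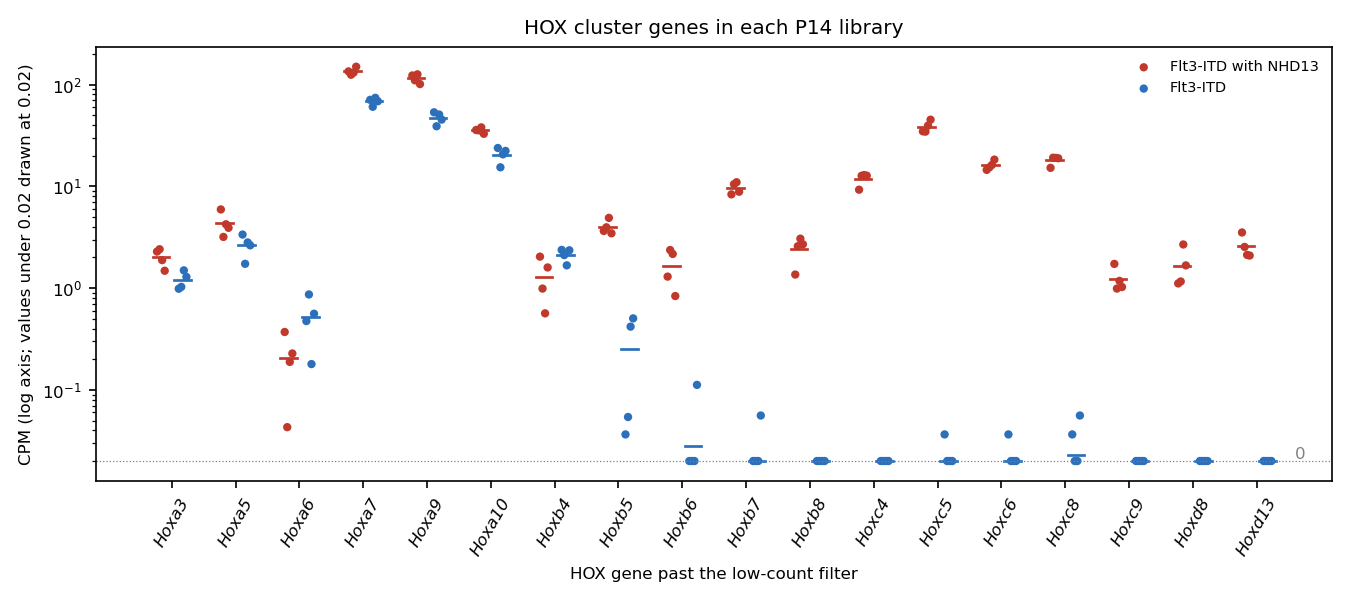
CPM on a log axis of the 18 HOX genes past the low-count filter, with a point for each of the 4 libraries of Flt3-ITD with NHD13 (red, left) and Flt3-ITD (blue, right), and a line at each mean. Values under 0.02 CPM are drawn on the dotted line, where Hoxb8, Hoxc4, Hoxc9, Hoxd8 and Hoxd13 of Flt3-ITD all lie, while Hoxa7, Hoxa9 and Hoxa10 are present in both groups and higher with NHD13.

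Promoter sequence is shown for a pair of HOX genes with no count in any Flt3-ITD library, Hoxb8 and Hoxd8, and for Hoxa9, which Flt3-ITD cells already expressed, so that the 2 kinds can be set side by side. Each is the 250 bases before the start in the RefSeq table (GRCm38.p6), read 5′ to 3′ on the gene's strand. Hoxb8 lies at chr11:96281655-96281904 (plus strand), Hoxd8 at chr2:74704365-74704614 (plus strand) and Hoxa9 at chr6:52227371-52227620 (minus strand). Capitals mark a match on either strand to CAATAAA, a core bound by posterior HOX proteins.
Hoxb8: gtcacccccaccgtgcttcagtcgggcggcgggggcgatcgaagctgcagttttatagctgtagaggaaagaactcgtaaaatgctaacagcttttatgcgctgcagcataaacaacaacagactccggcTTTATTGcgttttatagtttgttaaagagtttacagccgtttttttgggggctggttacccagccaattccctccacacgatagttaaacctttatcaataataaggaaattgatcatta
Hoxd8: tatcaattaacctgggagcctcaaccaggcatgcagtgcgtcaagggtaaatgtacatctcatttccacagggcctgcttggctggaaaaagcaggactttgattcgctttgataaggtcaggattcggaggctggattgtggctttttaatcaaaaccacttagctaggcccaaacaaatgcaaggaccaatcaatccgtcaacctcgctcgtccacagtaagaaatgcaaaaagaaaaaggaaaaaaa
Hoxa9: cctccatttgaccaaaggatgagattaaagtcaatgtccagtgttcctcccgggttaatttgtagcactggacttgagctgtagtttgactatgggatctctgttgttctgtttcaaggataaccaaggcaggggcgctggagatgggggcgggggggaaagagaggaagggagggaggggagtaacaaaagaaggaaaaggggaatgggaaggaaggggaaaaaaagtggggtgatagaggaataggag
The search used CAATAAA, TGATTNAT (HOX with PBX) and TGACAG (MEIS) on both strands. The first is in 4.21% of 32841 RefSeq promoters of this length, the next in 2.83% and the last in 15.9%. Of the 15 HOX genes that rose, 8 have an entry in the table, and Hoxb8 was the 1 with a match, to CAATAAA. No match says only that these letters are not in the window.

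In the Hoxc cluster, Hoxc4 (chromosome 15, 103018934 to 103036852) was at 9.26, 12.7, 12.9 and 12.7 CPM in Flt3-ITD with NHD13 and had 0 counts in all 4 Flt3-ITD libraries, at least 325-fold higher. Hoxc5 was at 34.7, 34.5, 39.4 and 45.1 CPM in Flt3-ITD with NHD13 and had 1 count over the 4 Flt3-ITD libraries, a ratio of 3130 (95% counting interval 562 to 124000). Its annotated exons overlap Hoxc10 on the same strand, so reads of the 2 genes may be mixed. Hoxc6 had a ratio of 1310 (235 to 51800) and Hoxc8 one of 736 (203 to 6080), and Hoxc9, with 0 counts in Flt3-ITD, was at least 31.7-fold higher. These intervals and floors cover counting error only. None of the 5 genes overlapped between the groups. In the Hoxb cluster the central genes behaved likewise. Hoxb7 had a ratio of 781 (140 to 30900), Hoxb6 one of 66.6 (18.1 to 555) and Hoxb8 was at least 67.2-fold higher. Hoxb5, which marks long-term stem cells in mouse marrow, was at 3.64, 3.96, 4.90 and 3.46 CPM in Flt3-ITD with NHD13 and at 0.0365, 0.0541, 0.418 and 0.504 CPM in Flt3-ITD, a rise of 4.06 ± 0.50 (adjusted p = 7.52e-07). Its antisense partner Hoxb5os overlaps it, and the strand setting of the counts is not given in the sources used here. Hoxb4, a self-renewal factor, did not pass (-0.73 ± 0.36, adjusted p = 0.205). In the Hoxd cluster Hoxd8 was at least 45.0-fold higher, beside Hoxd13.

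The Hoxa cluster was already on in Flt3-ITD and rose by far less. Hoxa9, the HOX gene most tied to myeloid leukemia, was at 123, 110, 126 and 101 CPM in Flt3-ITD with NHD13 and at 53.4, 38.9, 50.7 and 45.2 CPM in Flt3-ITD (1.29 ± 0.11, adjusted p = 3.56e-10). Hoxa7 averaged 135 ± 10.6 CPM with NHD13 and 68.4 ± 5.78 CPM in Flt3-ITD (SD, n = 4 each), a rise of 0.98 ± 0.08. Hoxa10 rose by 0.79 ± 0.14 (adjusted p = 0.000126). For these 3 genes the groups did not overlap. Hoxa5 passed only narrowly (0.70 ± 0.23, adjusted p = 0.0468) and its libraries overlapped, and Hoxa3 (0.75 ± 0.32) and Hoxa6 (-1.36 ± 0.65) did not pass.

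Of 9 HOX cofactor genes 7 were tested, and they moved apart. Pbx3, the PBX partner most often raised with HOXA9 in leukemia, was at 67.2, 76.1, 79.3 and 82.5 CPM in Flt3-ITD with NHD13 and at 1.13, 2.16, 2.27 and 1.68 CPM in Flt3-ITD. That is a rise of 5.43 ± 0.21 (adjusted p = 2.45e-17), among the largest changes of any well expressed gene. Meis1, the partner best known for speeding HOXA9 leukemia in mice, fell instead. It was at 311, 296, 324 and 335 CPM with NHD13 and at 531, 429, 491 and 540 CPM in Flt3-ITD (-0.65 ± 0.09, adjusted p = 2.78e-06), and it remained an abundant transcript in both groups. Pknox1, a relative of the MEIS genes, fell by 0.42 ± 0.10. Pbx2 (0.40), Pbx4 (-0.08) and Meis3 (1.37) did not pass. Genes linked to NUP98-fusion and HOX leukemia moved in both directions, with 4 of 19 tested higher and 4 lower. Eya1, a transcriptional cofactor, was at 114, 93.5, 99.6 and 95.8 CPM in Flt3-ITD with NHD13 and at 33.7, 27.7, 29.8 and 32.6 CPM in Flt3-ITD (1.70 ± 0.10, adjusted p = 4.39e-13). Mecom, which encodes the stem cell factor EVI1, rose by 1.14 ± 0.12, the DNA methyltransferase gene Dnmt3b by 0.65 ± 0.07 and Lmo2 by 0.45 ± 0.14. Bcl2, Cd34, Cdk6 and Adgrg1 fell, and Bcl2 and Cd34 are described below. The calls for Lmo2, Cdk6 (-0.46 ± 0.13) and Adgrg1 (-0.26 ± 0.09) did not hold under every alternative, and the lower count of this list was 2 when library 2, 3 or 4 of Flt3-ITD with NHD13, or library 2 or 4 of Flt3-ITD, was left out.

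Of 14 fetal progenitor genes 10 were tested, and 8 of those rose, with a median of 1.48. Members nearly absent from Flt3-ITD pass the filter only through other groups of the fit, the group with NHD13 included, so the count holds for the genes tested. With the 8 libraries alone 6 were tested and 6 rose. There such a member can pass only through the group with NHD13, so the filter favours a rise in that count too. Lin28b, the RNA-binding protein that blocks let-7 maturation and sets the fetal state of blood stem cells, was at 56.2, 60.1, 58.3 and 50.0 CPM in Flt3-ITD with NHD13 and at 3.07, 4.11, 1.85 and 2.58 CPM in Flt3-ITD (4.26 ± 0.17, adjusted p = 2.63e-17). Every library with NHD13 lay above every Flt3-ITD library. Its downstream and companion genes moved the same way with smaller steps, Hmga2 by 1.01, Igf2bp2 by 0.94, Igf2bp3 by 1.27 and Arid3a by 1.46. The imprinted genes H19 (2.60 ± 0.47, adjusted p = 0.000156), Igf2 (2.04 ± 0.69, adjusted p = 0.0497) and Plagl1 were higher from very low levels, H19 at 1.36 to 3.76 CPM with NHD13 against 0.162 to 0.730 CPM in Flt3-ITD, and the call for Igf2 was lost under several alternatives. Plagl1 passed although 1 of the 4 libraries with NHD13 had 0 counts, as did all 4 of Flt3-ITD. Mest (1.49) and Peg3 (-0.70) did not pass. Adult and fetal origin of the cells cannot be read from bulk counts, and fewer cells of a type and less RNA per cell cannot be told apart anywhere in these data.

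The Lin28b window is shown because, unlike the HOX promoters above, it holds matches to both cofactor motifs. It is the 250 bases before the RefSeq start at chr10:45470202-45470451 (minus strand, GRCm38.p6). Capitals mark 2 overlapping matches to TGATTNAT, 1 on each strand, and 1 match to TGACAG.
Lin28b: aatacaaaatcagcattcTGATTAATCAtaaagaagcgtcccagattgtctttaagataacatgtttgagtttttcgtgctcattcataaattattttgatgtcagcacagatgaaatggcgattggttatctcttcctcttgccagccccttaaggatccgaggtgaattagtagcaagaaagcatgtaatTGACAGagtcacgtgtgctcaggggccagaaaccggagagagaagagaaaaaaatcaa
The matches are descriptions of letters and were not tied to binding.

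Igf1, the gene of insulin-like growth factor 1, had one of the largest rises among well expressed genes whose groups did not overlap. It was at 267, 347, 405 and 368 CPM in Flt3-ITD with NHD13 and at 14.0, 11.961, 10.3 and 12.2 CPM in Flt3-ITD (4.83 ± 0.17, adjusted p = 2.45e-17). Mab21l2, a developmental gene of eye and limb, was at 60.9, 60.5, 60.02 and 45.2 CPM with NHD13 and at 0.219, 0.0541, 0 and 0.112 CPM in Flt3-ITD (8.92 ± 0.30). Its exons overlap those of Lrba on the opposite strand. Epha3, an ephrin receptor, rose by 8.84 ± 0.38, the X-linked gene Klhl4 by 4.97 ± 0.35 and the glycoprotein hormone gene Stc1 by 4.75 ± 0.57. All of these were low or nearly absent in Flt3-ITD. At the other end, B4galt6, which makes the glycolipid lactosylceramide, was at 1.61, 1.51, 2.40 and 1.25 CPM with NHD13 and at 24.5, 14.0, 16.7 and 25.1 CPM in Flt3-ITD (-3.58 ± 0.23, adjusted p = 1.50e-12). The sphingosine-1-phosphate receptor gene S1pr3 (-3.20 ± 0.40), Mmrn1 (-3.05 ± 0.25), C1qtnf6 (-2.99 ± 0.27), the interleukin-36 receptor gene Il1rl2 (-2.92 ± 0.36), Eps8 (-2.79 ± 0.15), BC064078 (-2.74 ± 0.17) and the matricellular gene Ccn3 (-2.65 ± 0.33) fell as well. Gata3, a factor of T cells that stem cells also express, was at 3.21 to 6.34 CPM with NHD13 and at 27.1 to 38.9 CPM in Flt3-ITD (-2.79 ± 0.25). Of the most abundant genes that passed, H2-D1, H2-K1, B2m, Nedd4 and Lgals9 rose by 0.26 to 0.84, and Fth1, H2afy, Lcp1, Cd34 and Adgrg1 fell, by 0.26 for Adgrg1 to 1.04 for Cd34, with Fth1 at 1902 to 2028 CPM with NHD13 and 2359 to 2832 CPM in Flt3-ITD (-0.39 ± 0.07). Lgals9, the gene of galectin-9, was at 2010 to 2270 CPM with NHD13 and at 1077 to 1464 CPM in Flt3-ITD (0.84 ± 0.09).

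Of 44 tested type I interferon-stimulated genes, 39 rose, with a median of 1.08. Their summed level was 9867, 9880, 8733 and 9642 CPM in the 4 libraries of Flt3-ITD with NHD13 and 5477, 5022, 3799 and 3884 CPM in those of Flt3-ITD. The 2 groups did not overlap, and 41 of the 44 genes did not overlap either. Ifit1, an RNA-binding antiviral protein, was at 321, 303, 224 and 258 CPM with NHD13 and at 105, 52.4, 46.0 and 36.0 CPM in Flt3-ITD (2.20 ± 0.40, adjusted p = 0.000658). Zbp1, a sensor of Z-form nucleic acid, was at 44.3, 48.9, 39.4 and 47.8 CPM with NHD13 and at 15.9, 12.6, 8.54 and 6.94 CPM in Flt3-ITD (2.02 ± 0.34, adjusted p = 0.000202). Ifit3 (2.27 ± 0.55) and Ifit3b (2.29 ± 0.45) moved with them, but the 2 are close paralogs that can share reads. Effectors, sensors and regulators were all among the risers. The GTPase gene Mx1 rose by 1.96, the ubiquitin-like modifier gene Isg15 by 1.91, the transcription factor gene Irf7 by 1.89, Rsad2 (viperin) by 1.85 and the negative regulator Usp18 by 1.80. The 2'-5'-oligoadenylate synthetase genes Oas2, Oas3 and Oasl1 rose by 1.74, 1.43 and 1.68, and the RNA helicase genes Ddx58, Ifih1 and Dhx58 by 0.95, 0.92 and 1.09. The interferon signalling genes Stat2 (0.34) and Irf9 (0.39) did not pass, nor did Ifi44 (1.18), Mx2 (0.64) or Ifi27 (-0.31). The interferon receptor genes Ifnar1 (-0.10) and Ifnar2 (-0.15) did not pass. Leaving out any 1 library gave 37 to 40 higher genes.

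**Figure D2:**
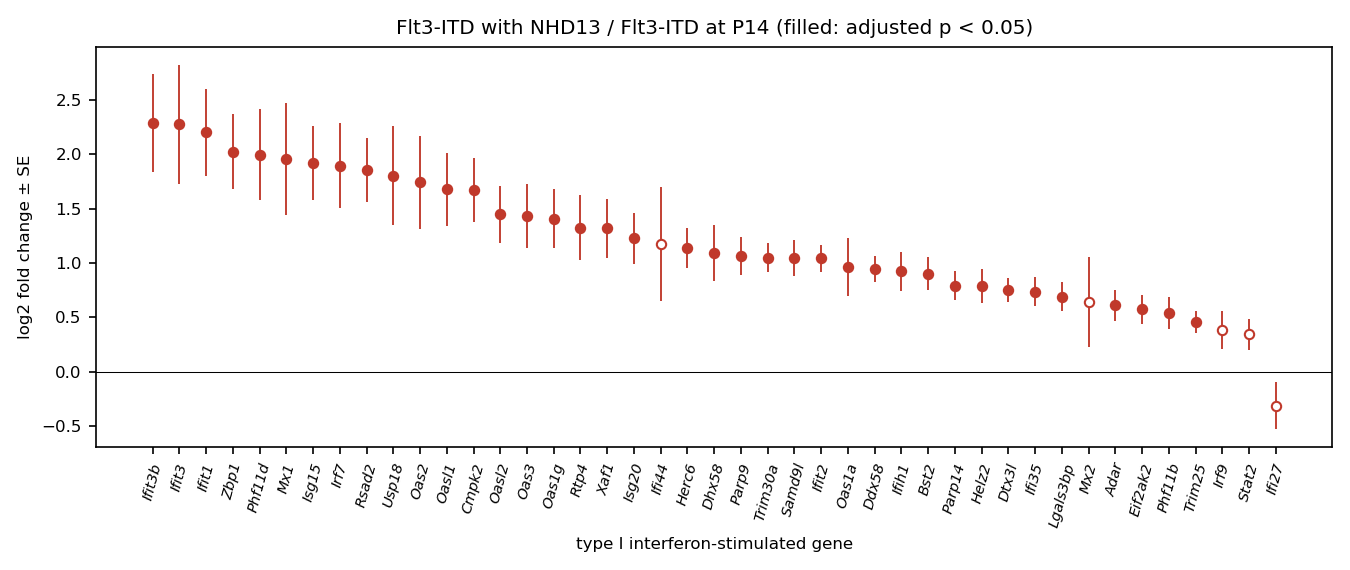
Log2 fold change ± SE of 43 of the 44 type I interferon-stimulated genes for Flt3-ITD with NHD13 over Flt3-ITD at P14, in order of size. Filled points passed (38 genes), and the 5 open points, Ifi44, Mx2, Irf9, Stat2 and Ifi27, did not.

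Members of the same list were also called higher in the groups with 1 lesion at P14, many in NHD13 alone and few in Flt3-ITD alone. In NHD13 alone against wild type (background 7.12% of tested genes higher) 35 of the 44 genes rose with a median of 0.88. In Flt3-ITD against wild type (3.84% higher) 4 rose with a median of 0.37; this contrast shares the Flt3-ITD libraries with the main one, so the values are only set side by side. The lowest adjusted p among the 44 for a difference between the NHD13 effects with and without Flt3-ITD was 0.267. Of 26 tested genes of antigen presentation and interferon-gamma response, 12 rose and 4 fell. Among class I genes and their partners, B2m (0.41 ± 0.10), the transactivator gene Nlrc5 (0.94 ± 0.20) and H2-Q7 (1.82 ± 0.45) rose, while H2-T23 (0.37), the peptide transporter gene Tap2 (-0.05) and the immunoproteasome genes Psmb8 (0.14), Psmb9 (0.05) and Psmb10 (0.18) did not pass. Higher too were the GTPase genes Irgm1 (1.01 ± 0.15) and Iigp1 (1.76 ± 0.38). H2-Q7, H2-K1 and H2-D1 are close paralogs whose reads may be shared. The class II gene H2-Aa was at 4.80 to 5.58 CPM with NHD13 and at 10.2 to 19.6 CPM in Flt3-ITD, with library 4 the lowest (-1.71 ± 0.34, adjusted p = 0.000745), H2-Ab1 changed by -0.63 ± 0.18 and the class II transactivator gene Ciita by -1.61 ± 0.41. The invariant chain gene Cd74 (-0.15) did not pass. Another GTPase gene, Gbp3, fell (-0.51 ± 0.12). Calls for H2-Ab1, Ciita, H2-K1 and H2-D1 were lost under some alternatives, and the higher count of the list was 7 without library 4 of Flt3-ITD.

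Of 29 tested megakaryocyte-erythroid genes, 15 rose and 2 fell, with a median of 0.75. Pf4, platelet factor 4, was at 90.9, 288, 172 and 250 CPM in Flt3-ITD with NHD13 and at 7.41, 7.69, 8.36 and 5.26 CPM in Flt3-ITD (4.80 ± 0.46, adjusted p = 3.06e-07). Car1, an early erythroid carbonic anhydrase, was at 63.2, 29.0, 33.0 and 40.9 CPM with NHD13 and at 5.55, 0.704, 1.67 and 0.280 CPM in Flt3-ITD (4.20 ± 0.66, adjusted p = 0.000149). In neither gene did the groups overlap, and within the group with NHD13 library 1 was lowest for Pf4 and highest for Car1. Ppbp, another platelet chemokine, rose by 3.24 ± 0.50, from under 1 CPM. Of its transcription factor genes, Gata1 rose by 1.67, Klf1 by 1.54 and Gfi1b by 1.22, while Tal1 (-0.36), Nfe2 (-0.09) and the cofactor gene Zfpm1 (0.35) did not pass, nor did the receptor gene Epor (0.55). Also higher were Itga2b (CD41) by 1.55, Mfsd2b by 2.78, Gp9 by 0.94, Gp1ba by 0.96, Vwf by 1.87 and Cd9 by 0.49. Outside this list platelet genes went both ways. Treml1 was among the largest rises (3.77 ± 0.26), and Mmrn1 was among the largest falls given above. Car2 (-0.56 ± 0.10) and Selp (-0.80 ± 0.23) fell, and the call for Selp did not hold under every alternative. Summed over the list, the levels overlapped, at 2773 to 3185 CPM with NHD13 and 2652 to 2975 CPM in Flt3-ITD, and Car2, its most abundant member that passed, fell. Mature red cell markers were low in both groups, at 61.5 to 89.2 CPM with NHD13 and 38.2 to 45.4 CPM in Flt3-ITD, and 1 of their 4 tested genes, Hbb-bt, rose (0.71 ± 0.21), a call lost without library 3 of Flt3-ITD with NHD13 or library 1 or 2 of Flt3-ITD. Their part in the erythroid result was not tested.

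**Figure D3:**
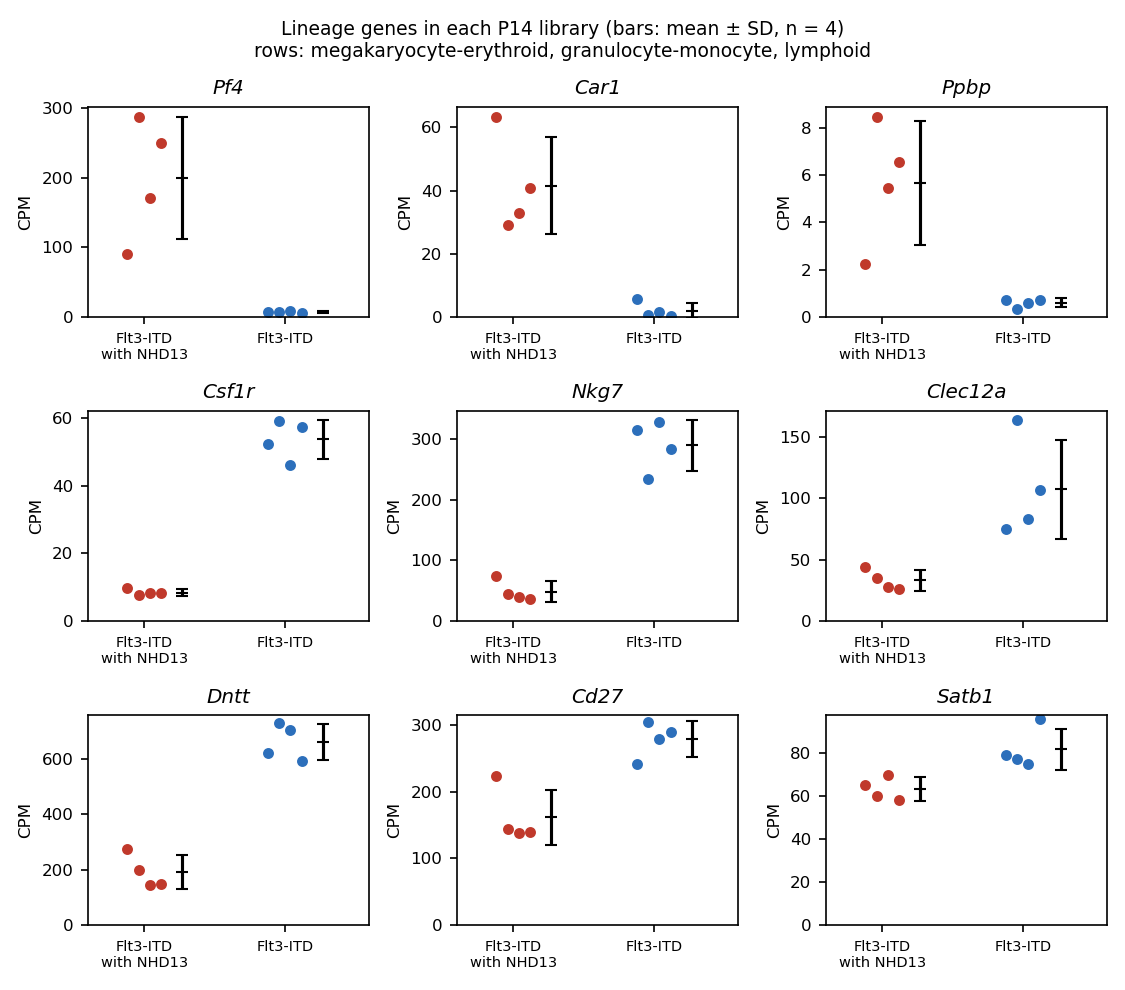
CPM in each library for 9 lineage genes, with Flt3-ITD with NHD13 (red) left of Flt3-ITD (blue) and black bars for mean ± SD (n = 4). The genes were chosen from list members that passed, and the 2 groups do not overlap in any of the 9. The megakaryocyte-erythroid genes of the top row are higher with NHD13, and the granulocyte-monocyte and lymphoid genes of the lower rows are lower. Other members of these lists did not pass or went the other way, such as Car2 and Selp (lower) and Spi1 (higher).

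Of 25 tested granulocyte-monocyte progenitor genes, 13 fell and 1 rose, with a median of -1.21. Their summed level was 1823, 1491, 1072 and 1194 CPM in Flt3-ITD with NHD13 and 3138, 3384, 2853 and 3329 CPM in Flt3-ITD, with no overlap. Csf1r, the macrophage colony-stimulating factor receptor, was at 9.82, 7.57, 8.19 and 8.20 CPM with NHD13 and at 52.4, 59.2, 46.2 and 57.3 CPM in Flt3-ITD (-2.67 ± 0.18, adjusted p = 1.01e-11). Nkg7, a granule membrane protein, was at 73.9, 45.4, 39.4 and 36.1 CPM with NHD13 and at 315, 234, 328 and 284 CPM in Flt3-ITD (-2.58 ± 0.25). Clec12a, an inhibitory lectin receptor (-1.70 ± 0.29), and the azurophil granule protease Ctsg (-1.599 ± 0.39) fell too. The lineage factors were among those that fell, with Cebpa at -1.38, Irf8 at -1.29 and Gfi1 at -0.84, and so were Mpo (-1.21), Prtn3 (-1.13), Csf3r (-1.50), Lyz2 (-0.94), Igsf6 (-1.21) and Anxa3 (-1.53). Spi1, which encodes PU.1, went the other way at 27.8, 37.7, 37.5 and 38.6 CPM with NHD13 and 27.9, 16.02, 14.8 and 15.8 CPM in Flt3-ITD (0.92 ± 0.27, adjusted p = 0.022), but its groups overlapped and the call was lost when 1 library was left out in 6 of the 8 cases. Without Flt3-ITD library 2, which had the highest neutrophil and dendritic cell markers, 11 of the genes were lower. In NHD13 alone against wild type (8.75% of tested genes lower, 7.12% higher), 9 of the 25 genes fell and 1 rose, with a median of -0.22. The NHD13 effects with and without Flt3-ITD differed for 2 of the 25, Ctsg and Irf8. Irf8 changed by -0.22 in NHD13 alone and did not pass there (difference -1.07, adjusted p = 0.047). Flt3-ITD against wild type (8.6% of genes in either direction, 4.76% lower) moved the lists the other way, with 8 granulocyte-monocyte genes higher and 8 megakaryocyte-erythroid genes lower, and it shares the Flt3-ITD libraries with the main comparison. Macrophage markers were at 80.7 to 95.6 CPM with NHD13 and 85.4 to 133 CPM in Flt3-ITD.

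Of 23 tested lymphoid priming genes, 4 fell and none rose in the edgeR fit (5 further genes of either direction had an unadjusted p under 0.05, DESeq2 called 0 higher and 4 lower, and 1 rose without library 1 of Flt3-ITD, with the replicate block or with the 8 libraries alone, where 5 fell). Dntt, the template-free polymerase of early lymphoid progenitors, was at 275, 199, 143 and 147 CPM in Flt3-ITD with NHD13 and at 623, 729, 706 and 592 CPM in Flt3-ITD (-1.79 ± 0.20, adjusted p = 1.03e-06). Cd27 fell by 0.79 ± 0.17 and the chromatin organizer gene Satb1 by 0.37 ± 0.11, the last not under every alternative. The recombination gene Rag1 (0.09), the receptor genes Il7r (-0.37) and Cd79a (-0.17) and the B-lineage gene Ebf1 (-0.07) did not pass. Of 14 tested mast cell, basophil and eosinophil genes, 5 rose and 1 fell. The mast cell protease gene Cma1 was at 56.4, 121, 31.9 and 23.7 CPM with NHD13 and at 4.67, 0.595, 2.21 and 4.98 CPM in Flt3-ITD (4.18 ± 0.78, adjusted p = 0.000839). Ms4a2, a chain of the IgE receptor, rose by 3.15 ± 0.56 and the histamine-forming enzyme Hdc by 1.80 ± 0.39. Mcpt4 (3.38 ± 1.07) and Cpa3 (1.14 ± 0.37) overlapped between the groups and lost their calls under some alternatives. The basophil protease gene Mcpt8 fell by 2.11 ± 0.38. The mast cell genes Tpsb2 (2.60) and Tpsab1 (1.03), the basophil gene Cd200r3 (-0.33) and the eosinophil genes Prg2 (2.01), Prg3 (1.64) and Epx (0.66) did not pass. The higher count of this list was 3 without library 1 or 2 of Flt3-ITD with NHD13, or without library 1 or 2 of Flt3-ITD.

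Of 26 tested stem cell genes, 10 rose and 9 fell, with a median of -0.10. Slamf1 (CD150), a surface marker of long-term stem cells, was at 26.2, 36.7, 23.2 and 25.7 CPM in Flt3-ITD with NHD13 and at 5.8029, 4.87, 5.74 and 5.10 CPM in Flt3-ITD (2.37 ± 0.18, adjusted p = 8.53e-11). Nupr1, a stress-response nuclear protein, rose by 2.48 ± 0.25 and Vwf, which marks platelet-biased stem cells, by 1.87 ± 0.33, beside Mecom, Hoxb5, Gata2 (1.20), Angpt1 (0.73), Hlf (0.44) and Ctnnal1 (0.37). Esam, an endothelial adhesion molecule, was at 1.85, 2.19, 4.33 and 2.28 CPM with NHD13 and at 51.8, 24.7, 50.9 and 36.3 CPM in Flt3-ITD (-3.93 ± 0.30, adjusted p = 1.56e-09). Robo4, a vascular guidance receptor, fell by 2.20 ± 0.17, Fgd5 by 2.49 ± 0.28, the quiescence-linked gene Ndn by 2.20 ± 0.27, and Tie1, Tek, Ifitm1, Gprasp2 and Pdzk1ip1 were at -2.01, -1.78, -1.56, -1.48 and -0.93. The vessel markers Cdh5 (0.12) and Kdr (0.59) did not pass, while Pecam1, which progenitors also express, fell by 0.36 ± 0.10 with overlapping groups, a call lost without library 2 or 3 of Flt3-ITD with NHD13. Procr (-0.56), Ly6a (0.06) and Mllt3 (0.03) did not pass.

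Transcripts of surface proteins commonly used to sort these cells changed in part. Of 8 such genes 1 rose, Slamf1, and 4 fell. Cd34 was at 1116, 971, 1028 and 1037 CPM in Flt3-ITD with NHD13 and at 2090, 2091, 2150 and 2184 CPM in Flt3-ITD (-1.04 ± 0.08, adjusted p = 2.43e-10). Spn (CD43) fell by 0.44 ± 0.08, Cd27 by 0.79 ± 0.17 and Cd48, a marker of progenitors past the stem cell stage, by 0.50 ± 0.14 with overlapping groups and not without library 3 or 4 of Flt3-ITD with NHD13. Kit (-0.05), Ly6a (0.06) and Flt3 (-0.17) did not pass. The gate used to isolate the cells is not given in the sources used here, so a shift in the mix of cells within it and a change within the cells cannot be told apart.

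Of 31 tested cytokine receptor genes, 11 fell and 3 rose. Il18r1 fell by 2.29 ± 0.27, Il1r1 by 1.95 ± 0.20 and Il10ra by 1.88 ± 0.20, in addition to Csf1r. Il1r1 was at 8.15, 11.5, 10.6 and 10.025 CPM in Flt3-ITD with NHD13 and at 44.5, 28.8, 41.9 and 40.3 CPM in Flt3-ITD. The shared interleukin-6 chain Il6st (-0.91) and its partner Il6ra (-1.43) both fell. Among the genes that rose, Tgfbr1 did so by 0.46 ± 0.10 and Il1rl1, the interleukin-33 receptor of mast cells, by 1.85 ± 0.50 with overlapping groups. The call for Il1rl1 was lost without library 2 of Flt3-ITD with NHD13 (1.17). STAT5 is the transcription factor that FLT3-ITD activates, and 2 of its 15 tested target genes rose and 3 fell. Among the feedback inhibitor genes, 2 of 4 passed. Cish was at 55.4, 51.1, 59.973 and 65.3 CPM with NHD13 and at 105, 73.2, 105 and 89.3 CPM in Flt3-ITD (-0.68 ± 0.14, adjusted p = 0.001), and Socs3 fell by 1.88 ± 0.41, while Socs1 (0.10), Socs2 (-0.23), Pim1 (-0.29) and Osm (0.16) did not pass. Bcl2l1 (0.49 ± 0.14), Gadd45g (1.28 ± 0.43) and Ccnd2 (-0.28 ± 0.09) passed with overlapping groups and lost their calls under some alternatives, which left 0 higher genes without library 2, 3 or 4 of Flt3-ITD with NHD13 or library 4 of Flt3-ITD and 1 without library 1 or 2 of Flt3-ITD. Of 11 MAPK feedback genes 1 passed, Dusp5 (-0.65 ± 0.20), and not without library 2 or 3 of Flt3-ITD with NHD13 or library 1 of Flt3-ITD, with 6 further genes at an unadjusted p under 0.05. In those 3 fits, and with the replicate block, 1 gene of the list was called higher. Of 11 immediate early genes, which also respond to cell handling, Klf6 passed (0.44 ± 0.10).

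Survival genes moved in a mixed way. Bcl2, the anti-apoptotic founder of its family, was at 13.2, 15.5, 11.3 and 12.5 CPM in Flt3-ITD with NHD13 and at 46.4, 55.9, 36.7 and 51.5 CPM in Flt3-ITD (-1.86 ± 0.15, adjusted p = 2.23e-10), with no overlap. Pmaip1, the pro-apoptotic NOXA gene, rose by 2.16 ± 0.37 and Casp8 by 0.38 ± 0.08, while the cell cycle inhibitor gene Cdkn1a fell by 1.12 ± 0.18. In all, 2 of 16 apoptosis and p53-linked genes rose and 2 fell, and Trp53 (-0.05), Bax (0.01), Mcl1 (0.11) and Mdm2 (0.23) did not pass. Few proliferation genes passed. The cell cycle genes summed to 11110 to 11900 CPM with NHD13 and to 11920 to 13540 CPM in Flt3-ITD. These ranges nearly touch, and the highest value is that of Flt3-ITD library 2. Of 30 cell cycle genes, with a median of -0.075, 2 fell, close to the share of all tested genes (7.18%). They were Cdk6 and Tyms (-0.36 ± 0.11), both with overlapping groups and both lost under some alternatives. Mki67 (-0.38) and Top2a (-0.22) did not pass. Without library 2, 3 or 4 of Flt3-ITD with NHD13 0 cell cycle genes were lower, and without library 2, 3 or 4 of Flt3-ITD 1 was. Among 22 MYC and ribosome biogenesis genes 0 passed in edgeR and 0 in DESeq2, with 1 at an unadjusted p under 0.05, and their median was 0.02.

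Markers of mature or neighbouring cells were low throughout. T and NK cell markers summed to 35.4 to 61.0 CPM in Flt3-ITD with NHD13 and 49.6 to 58.9 CPM in Flt3-ITD, B and plasma cell markers to 76.2 to 122 CPM and 27.2 to 175 CPM, and hepatocyte markers to 19.9 to 23.6 CPM and 23.9 to 28.0 CPM. Of the T and NK markers 4 of 8 were tested, Cd3g was higher (3.28 ± 0.67) and Trbc2 lower (-2.41 ± 0.34). Endothelial and stromal markers summed to 90.6 to 112 CPM with NHD13 and 105 to 130 CPM in Flt3-ITD, most of it Pecam1. In edgeR 0 of the 4 tested B and plasma cell markers, 0 of 6 dendritic cell markers and 0 of 6 mature neutrophil markers passed, with 1, 2 and 0 of them at an unadjusted p under 0.05, and DESeq2 called 0 of each. Without Flt3-ITD library 2, 1 B and plasma cell marker rose. Of 8 macrophage and monocyte markers, Axl rose (0.60 ± 0.12) and Adgre1 fell (-1.02 ± 0.25), with 3 lower without library 1 of Flt3-ITD and 2 lower without library 3 of Flt3-ITD or library 1 or 4 of Flt3-ITD with NHD13. Trf, a transferrin gene that blood progenitors also express, was the 1 hepatocyte marker that fell (-0.82 ± 0.14). The part of these cells in the results above was not tested.

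Most of these genes were also called without Flt3-ITD. NHD13 alone against wild type, which uses 8 other libraries of the same age, called 2285 genes (15.9%). By Xist and Y-linked counts, library 1 of NHD13 was female and its libraries 2, 3 and 4 were male. In wild type, library 2 was male and libraries 1, 3 and 4 were female. Sex and NHD13 are therefore partly confounded in that contrast. Of the 1948 genes called in Flt3-ITD with NHD13 against Flt3-ITD, 1279 were also called there in the same direction, 65.7% of the first list and 56.0% of the second, and 6 in the opposite one. The sign was shared by 93.6% of the 1948 genes, beside 67.5% of all tested genes. Across the 14394 genes the 2 sets of log2 fold changes correlated with r = 0.745 and rho = 0.529, as a description, since genes are not replicates. A test of the difference itself called 77 genes (0.535%), 37 with the more positive effect in the presence of Flt3-ITD and 40 with the more negative one. Of these, 48 were among the 1948, 31 of them called in both contrasts, and 29 were called in NHD13 alone only. The values without single libraries are given under the processing alternatives. The count of 77 was less stable than the main one, and it became 47 with a sex term. Flt3-ITD library 3, Flt3-ITD library 4, libraries 3 and 4 of Flt3-ITD with NHD13, library 4 of NHD13 and library 3 of wild type each lowered it to between 40 and 50 when left out.

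**Figure D4:**
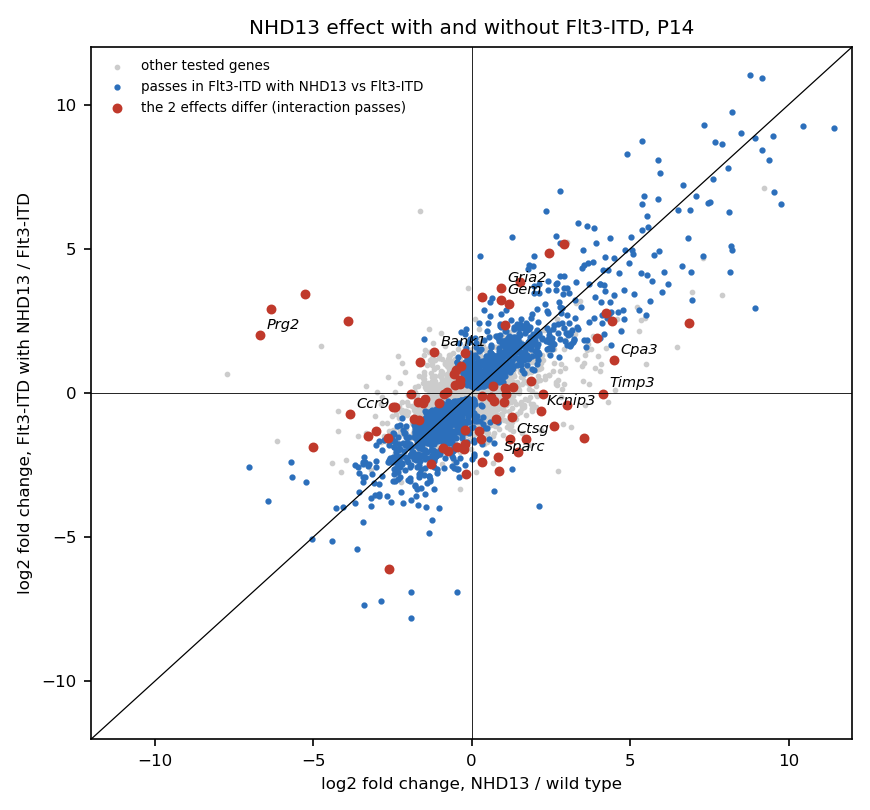
Each point is a tested gene, with the log2 fold change of Flt3-ITD with NHD13 over Flt3-ITD on the vertical axis and that of NHD13 over wild type on the horizontal axis (4 libraries in each group). Most of the genes that passed (blue) lie near the diagonal of equal effects, and the 77 red points are those where the 2 effects differed.

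The HOX genes were in the shared part. Hoxa9 rose by 0.91 in NHD13 alone, Pbx3 by 5.03, Lin28b by 4.31, Igf1 by 5.09 and Mab21l2 by 9.49, and the lowest adjusted p for a difference among the 18 HOX genes was 0.38. Where the effects differed, Gem, a small GTPase gene, was the clearest. It was at 130, 110, 116 and 93.2 CPM in Flt3-ITD with NHD13, 11.9, 11.4, 13.5 and 11.4 CPM in Flt3-ITD, 261 to 320 CPM in NHD13 alone and 139 to 186 CPM in wild type. NHD13 thus raised Gem by 3.22 ± 0.18 with Flt3-ITD and by 0.92 ± 0.16 without it (difference 2.30, adjusted p = 1.50e-05). Gria2, a glutamate receptor subunit, rose by 3.63 ± 0.32 with Flt3-ITD and by 0.93 without it (difference 2.71, adjusted p = 0.0013). Bank1, a B cell adaptor, changed sign, at 42.3 ± 11.8 CPM with NHD13 and 15.8 ± 3.01 CPM in Flt3-ITD but at 24.8 ± 4.11 CPM in NHD13 alone and 55.9 ± 11.7 CPM in wild type (SD, n = 4 each). Bcl2 fell by 1.86 with Flt3-ITD and by 0.47 without it (difference -1.39, adjusted p = 0.000514), with 23.023 ± 2.50 CPM in NHD13 alone and 31.8 ± 5.88 CPM in wild type. Ctsg fell with Flt3-ITD and was higher without it, by a value that did not pass (1.21, adjusted p = 0.0503; difference -2.81, adjusted p = 0.0272). The T cell receptor gene Tcrg-C1, which wild type held at 0.474 to 1.71 CPM and Flt3-ITD at 6.6028 to 13.2 CPM, fell by 2.82 ± 0.28 with Flt3-ITD and changed by -0.18 without it. Mast cell protease gene Cpa3 showed the reverse pattern of size, 1.14 with Flt3-ITD and 4.49 without it. Timp3 (-0.02 against 4.13), Kcnip3 (-0.62 against 2.18), Ccr9 (-0.72 against -3.84) and Prg2 (2.01 against -6.67) did not pass with Flt3-ITD and passed without it. The matricellular gene Sparc fell with Flt3-ITD (-2.22 ± 0.48) and did not pass without it (0.83), and Nedd4 rose less with Flt3-ITD (0.26 against 0.67). The 6 genes that passed in opposite directions were Bank1, Ctla2a (0.31 against -0.35), Ear6 (3.45 against -5.26), the stem cell factor gene Hlf (0.44 against -0.36), Ninl (-0.89 against 0.77) and Scin (-1.58 against 1.70), named after their values were seen.

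At P0 the same genotype contrast called fewer genes, with a coefficient of variation between replicates of 0.301 against 0.164 at P14. They were 413 of 14359 (2.88%), with 250 higher and 163 lower. At P0, 2 of the 4 libraries with NHD13 and all 4 of Flt3-ITD were male, and a sex term gave 385 genes. Of the 1868 P14 genes also tested at P0, 82.4% had the same sign, beside 59.6% of all genes tested at both ages, and 287 passed at both ages in the same direction, 15.4% of the P14 list and 71.2% of the 403 P0 genes tested at P14. The Pbx3 and Igf1 changes, and those of most tested HOX genes, were seen at P0 as well. Igf1 was at 481, 190, 409 and 406 CPM in Flt3-ITD with NHD13 and at 10.2, 14.1, 12.6 and 17.2 CPM in Flt3-ITD at P0 (4.78 ± 0.30). Pbx3 rose by 4.74 ± 0.23 and Hoxa9 by 1.17 ± 0.15 at P0, and 11 of the 16 HOX genes tested there rose (1.74% of all genes). As at P14, the filter favours such a count, because genes absent from Flt3-ITD can pass through the group with NHD13. Hoxa5 (1.05), Hoxa7 (0.62) and Hoxb5 (2.12), which rose at P14, did not pass at P0, and Hoxc9 was not tested there. Of the interferon-stimulated genes 4 of 44 rose at P0, with a median of 0.58, and the lowest adjusted p among them for a difference between the ages was 0.0808. A higher count at P14 therefore does not show a larger interferon effect there.

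Effects that differed between the ages were tested directly, which called 273 of 14984 genes (1.82%), 95 with a more positive effect at P14 (0.634%) and 178 with a more negative one (1.19%). The counts of the 2 ages come in separate tables, so age and batch cannot be told apart in these differences. Among the genes called at P14, 137 of the lower ones and 33 of the higher ones differed. Choosing genes by their call at P14 favours a larger effect at that age, so the split that follows is a description. Of the 137 lower genes, 59 had the same sign and a smaller effect at P0 and 78 the opposite sign. Of the 33 higher genes, 14 had the same sign and a smaller effect at P0, 3 a larger one and 14 the opposite sign, and 2 were not tested at P0. At P0 Esam was at 23.3, 54.0, 31.6 and 19.8 CPM in Flt3-ITD with NHD13 and at 83.1, 91.0, 55.7 and 73.2 CPM in Flt3-ITD (-1.24 ± 0.29), against -3.93 at P14, a difference of -2.67 ± 0.41 (adjusted p = 0.000427). Meis1, which fell at P14, was at 429, 409, 385 and 438 CPM with NHD13 and at 406, 394, 346 and 391 CPM in Flt3-ITD at P0 (0.11 ± 0.12; difference -0.75, adjusted p = 0.00155). Ndn, Robo4, B4galt6, Eps8, C1qtnf6, Fgd5 and Bcl2 likewise did not pass at P0 and fell at P14, each with a difference that passed, as did the receptor genes Il1r1 and Il10ra. Csf1r fell at both ages, by 1.20 ± 0.27 at P0. Lin28b was a case of the other kind. It was at 54.6, 40.1, 68.6 and 63.9 CPM with NHD13 and at 19.2, 17.8, 14.4 and 20.3 CPM in Flt3-ITD at P0 (1.66 ± 0.22), so that its level with NHD13 was similar at both ages and its level in Flt3-ITD was 1.85 to 4.11 CPM at P14. The difference of the effects was 2.62 ± 0.26 (adjusted p = 1.65e-07). The 4 genes that passed at both ages in opposite directions were Cd1d2, Gcnt2, Lcn4 and Nxpe5, named after their values were seen.

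**Figure D5:**
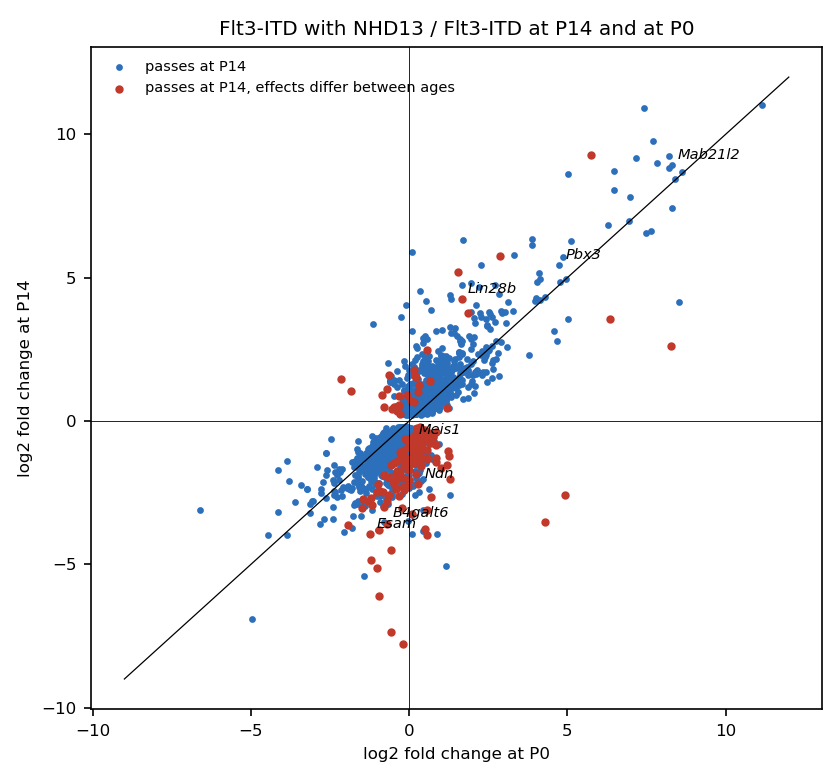
Log2 fold change of Flt3-ITD with NHD13 over Flt3-ITD at P14 (vertical) and at P0 (horizontal) for the 1868 genes called at P14 and tested at both ages, with the diagonal of equal effects. Red points are genes whose effect differed between the ages, and most lie below the horizontal zero line, where the fall at P14 was weaker or absent at P0.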

How the data were processed

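RNA of hematopoietic progenitors was sequenced at P14 (24 libraries in 6 groups) and P0. The deposited tables hold whole-number counts per gene, which the authors made with featureCounts 1.4.5 from the Subread package, per the submitters' processing notes; the strand setting and genome build are not given in the sources used here. Gene names and spans come from GENCODE M21, which may differ from the annotation counted. In the P0 table, 4 columns matched no labelled sample and were not used, and NHD13 at P0 was not analysed here.

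edgeR 4.0.16 (R 4.3.3, limma 3.58.1) was run on the counts, with TMM scaling, filterByExpr and robust quasi-likelihood F tests with Benjamini-Hochberg adjustment at 0.05. The P14 fit held all 24 libraries, which share 1 estimate of spread with 18 residual degrees of freedom. The difference between the NHD13 effects with and without Flt3-ITD was a contrast of that fit. P0 was fitted on 12 libraries and the difference between ages on 36. CPM use effective library sizes. Scripts were tested on simulated data. Counting intervals are exact at the 95% level. Genes at 0 in Flt3-ITD were given against a floor of 3 counts over the group.

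Alternatives were RLE and upper quartile scaling, no low-count filter, the replicate number as a block, a sex term, DESeq2 1.42.0, the 8 libraries alone and leaving out each library. The members, gene lists and tests were chosen with earlier results of these data known. Named genes were the targeted genes, every tested HOX and cofactor gene, the 12 largest changes in each direction with mean log2 CPM of at least 2 and no overlap, up to 4 per list and direction, the 5 largest differences in each direction with and without Flt3-ITD, and the 5 most abundant called genes in each direction. Other list members are given by their log2 fold change. Some genes that the rule names are not reported here.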

Additional observations from a re-analysis of the deposited data

Results flagged for a closer look

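In 16 of 263 groups of 4 libraries tested, 1 library lay apart from the other 3, where chance gives about 5 percent. The value given is the gap to the nearest library divided by the range of the group. Within Flt3-ITD with NHD13, library 1 was lowest for Hoxc4 (0.95), Hoxc8 (0.948) and Spi1 (0.912) and highest for Cd27 (0.914). Library 2 was lowest for Axl (0.876), library 3 highest for Epha3 (0.888), and library 4 lowest for Mab21l2 (0.952) and highest for Adgre1 (0.833). Within Flt3-ITD, library 2 was highest for Pbx4 (0.83), Adgrg1 (0.874), H2-D1 (0.915) and Lgals9 (0.848) and lowest for Il1rl2 (0.849). Library 1 was highest for Spi1 (0.878), and library 4 was lowest for H2-Aa (0.85) and highest for Prg2 (0.877).

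The NHD13 effect differed with and without Flt3-ITD at P14 for 13 of the named genes. The difference of the log2 effects, with Flt3-ITD minus without, was 8.68 for Prg2, 3.11 for Ccr9, 2.71 for Gria2, 2.60 for Bank1 and 2.30 for Gem. It was -4.15 for Timp3, -3.35 for Cpa3, -3.05 for Sparc, -2.81 for Ctsg, -2.80 for Kcnip3, -2.64 for Tcrg-C1, -1.39 for Bcl2 and -0.41 for Nedd4. In Prg2, library 4 of Flt3-ITD was at 37.2 CPM and the other 3 at 0.657 to 1.28 CPM.

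The effect on Flt3-ITD differed between P14 and P0 for 20 named genes. The log2 effect at P14 minus that at P0 was 2.62 for Lin28b, 1.95 for the platelet gene Treml1 and 0.53 for Dnmt3b. Among stem cell and vessel-type genes it was -2.67 for Esam, -2.47 for Ndn, -1.70 for Robo4 and -1.64 for Fgd5. Among receptor genes it was -1.71 for Il1rl2, -1.50 for Il10ra, -1.44 for Csf1r and -1.24 for Il1r1. The factor genes Gata3, Meis1 and Klf6 were at -1.46, -0.75 and -0.73. The others were B4galt6 (-2.85), C1qtnf6 (-2.18), Eps8 (-2.07), Mmrn1 (-1.54), Bcl2 (-1.42) and BC064078 (-1.26).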

How the results depend on the processing

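The 1948 genes of the P14 comparison became 1742 to 2138 under the other settings and 1594 to 1927 when 1 library was left out, always in both directions. The 77 genes whose NHD13 effect differed with and without Flt3-ITD became 47 with a sex term, 166 with DESeq2 and 40 to 103 without 1 library. The 413 genes at P0 became 881 with DESeq2, 250 with the 8 libraries alone and 204 to 567 without 1 library, the lowest without P0 Flt3-ITD library 1, 3 or 4 (214, 204 and 241). The 273 genes that differed between ages became 474 with DESeq2 and 126 to 529 without 1 library, under 2 in 3 of the full count without library 2 or 3 of Flt3-ITD with NHD13 (137 and 180), library 1, 3 or 4 of Flt3-ITD (126, 153 and 138) or P0 Flt3-ITD library 1 (177), and 529 without P0 library 1 of Flt3-ITD with NHD13. The cause was not tested. Of the values of named genes, 1843 kept direction and side of the threshold, 138 were weaker, 5 stronger and 6 reversed. Without 1 library Timp3 ranged from -0.224 to 0.17. The reversed ones are all of Timp3, lie near 0 and did not pass: 0.033 with the block, 0.17 and 0.006 without library 1 or 3 of Flt3-ITD with NHD13, and 0.049, 0.11 and 0.021 without library 1, 3 or 4 of Flt3-ITD. Same-numbered libraries did not deviate together (r = -0.051, 0.006, -0.069 and -0.186 at P14), so the numbers were not taken to pair them. With the replicate block 1920 genes were called at P14, 65 for the difference with and without Flt3-ITD, 463 at P0 and 272 between ages. Genes under about 1 CPM rest on few counts, and sex is not balanced between the groups.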
